A study of Mus musculus with 13 samples.

Results

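From the lamina propria of the small intestine, eosinophils of Clec4a4-mCherry knock-in reporter mice were sorted into mCherry+ and mCherry- cells, and the RNA of 5 samples of each was measured on microarrays. These 10 arrays are all the reporter samples among the 13 samples of the series. They were joined into 5 pairs by the number in their column names, and that number entered the comparison as a block. The other 3 samples, with 1 array each on another array model, are Clec4a4- eosinophils of Ahr KO mice and, from WT mice, Clec4a4+ and Clec4a4- eosinophils. All 10 reporter samples carry the knock-in allele, so no sample of WT mice stands in the comparison. The labels call the samples biological replicates but do not say which mouse or pool of mice each came from. The p-values rest on the spread of the pair differences among these 5 pairs, and how far this covers the spread between mice is not known. The study used the sort to find genes that set Clec4a4+ apart from Clec4a4- eosinophils.

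Clec4a4 is a C-type lectin receptor of myeloid cells with an inhibitory motif in its cytoplasmic tail. The aryl hydrocarbon receptor (AHR) is a transcription factor that is switched on by dietary and microbial compounds, which are abundant in the small intestine, and Cyp1b1 is among its classical targets. Eosinophils are granulocytes that reside in the lamina propria of the healthy small intestine, where they carry Ccr3 and Siglecf and can release granule proteins, cytokines and lipid mediators.

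Levels are log2 intensities after robust multi-array averaging (RMA), and a difference is mCherry+ minus mCherry- on that scale, so that 1 is a 2-fold difference. Of 20527 genes tested with limma, 218 were higher in mCherry+ eosinophils (1.06% of all genes) and 155 were lower (0.755%) at a Benjamini-Hochberg adjusted p under 0.05, and such genes are said to have risen or fallen. The shares of 1.06% and 0.755% are the ones to set beside the counts of each list below. Each of these 373 genes, 1.82% of all genes, differed in the same direction in 5 of 5 pairs, which a paired test favours. Over all genes, 5.94% were higher and 6.01% were lower in 5 of 5 pairs. The median difference was 0.88 among the genes that rose and -1.01 among those that fell, and a 4-fold difference was reached by 6 genes that rose and 23 that fell. In 176 of the 373 genes the mCherry+ and mCherry- values did not overlap at all, which held for 1.92% of all genes.

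Some arrays stood apart from the others. Both arrays of pair 1 had Xist, the RNA of the inactive X chromosome, at 9.90 in mCherry+ and 10.36 in mCherry- cells, while the other 8 arrays lay between 3.56 and 3.93. The mean level of 22 epithelial marker genes was also low in pair 1, at 8.04 in mCherry+ and 7.85 in mCherry- cells, against 9.50 to 10.43 in the other pairs. Pair 4 had the lowest mean of 16 eosinophil markers, at 7.67 in mCherry+ and 7.56 in mCherry- cells, against 8.08 to 8.77 elsewhere. In every array outside pair 1, the epithelial mean was thus above the eosinophil mean. The part of epithelial RNA in these samples was not tested. Of 15 neutrophil markers, the mean was 6.11, 5.96, 6.05, 5.77 and 5.90 in mCherry+ arrays 1 to 5, and 6.59, 6.83, 6.61, 7.67 and 7.12 in mCherry- arrays 1 to 5. S100a8 and S100a9 carried much of that gap. Without them, the mean of the other 13 markers was 6.16, 6.07, 6.16, 5.66 and 5.91 in mCherry+ arrays 1 to 5, and 6.03, 6.24, 6.15, 6.96 and 6.45 in mCherry- arrays 1 to 5. The mCherry- arrays 4 and 5 thus stood highest, and mCherry- array 2 lay just above all mCherry+ arrays. Only mCherry- arrays 1 and 3 lay within the mCherry+ range. With pairs 4 and 5 left out, 84 genes rose and 86 fell, and 134 of the 373 genes kept their call.

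Those neutrophil genes did not move together. S100a8 and S100a9 fell, and Hp, Lcn2 and Csf3r had differences of -1.77, -1.67 and -1.07 without passing the test. Lcn2, an iron-trapping protein of neutrophil granules, stood at 4.64, 4.51, 4.50, 4.59 and 4.55 in the mCherry+ arrays, and at 5.12, 5.19, 4.77, 8.61 and 7.45 in the mCherry- arrays. It was thus far above the rest only in mCherry- arrays 4 and 5. From the same list, Ly6g, Elane, Mpo, Camp, Ltf, Ngp and Mmp8 had mean levels under 5.38, the median gene of the table, in both groups. Retnlg was bright in both, at 12.09 in mCherry+ and 12.18 in mCherry- cells. In bulk samples, more cells of another type and more RNA per cell cannot be told apart, and the part of neutrophil RNA in the differences below was not tested.

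**Figure D1:**
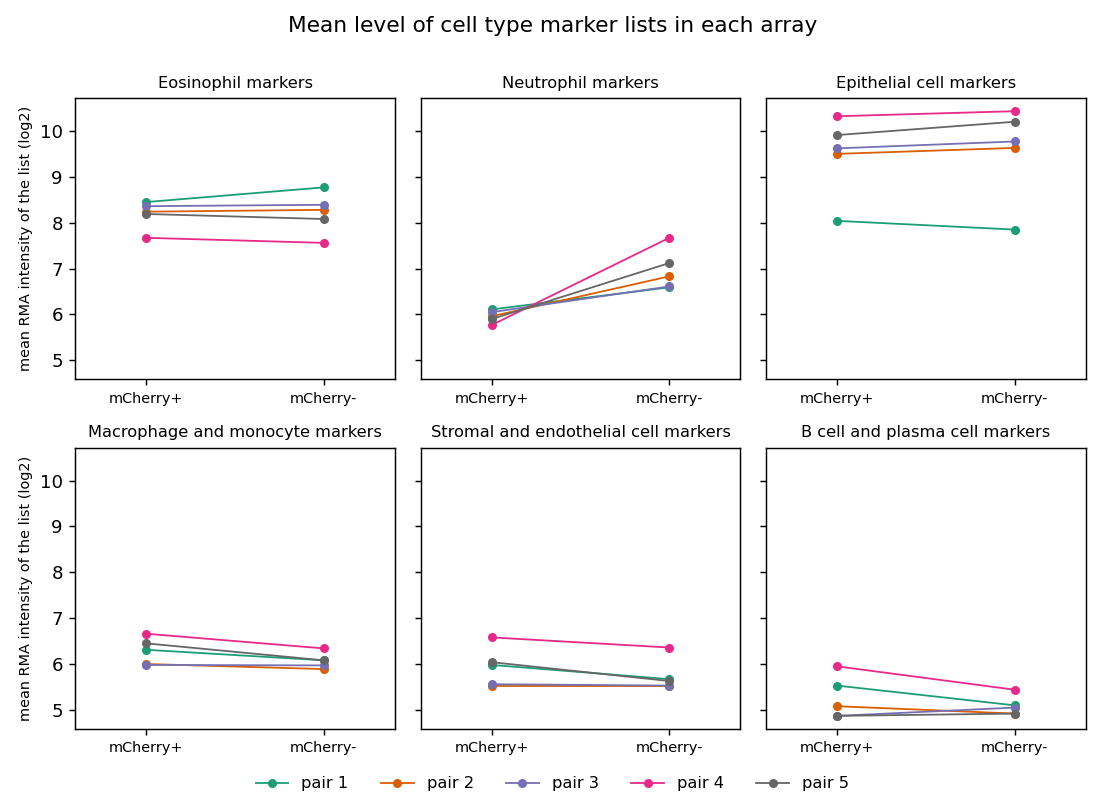
Mean log2 RMA intensity of 6 cell type marker lists in each array, with mCherry+ on the left, mCherry- on the right and the 2 arrays of a pair joined. The mean of the 15 neutrophil markers, which include S100a8 and S100a9, was higher in the mCherry- array of all 5 pairs, epithelial markers were lowest in both arrays of pair 1, and eosinophil markers were lowest in pair 4.

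Several eosinophil markers had levels above the median gene of the table in both groups. Ccr3, the eotaxin receptor, averaged 10.65 in mCherry+ and 10.53 in mCherry- cells, Siglecf 8.67 and 8.29, and the lipoxygenase Alox15 10.48 and 10.60, with adjusted p-values of 0.63, 0.337 and 0.776. Epx, the eosinophil peroxidase, was dim in both groups, at 4.53 in mCherry+ and 4.44 in mCherry- cells. Of 16 eosinophil markers, Itgax and Ptprc rose while Prg2 and Ear1 fell, with the call of Ptprc lost whichever pair was left out and that of Prg2 without pair 1, 2, 3 or 4. Of the 22 epithelial markers none passed limma's test (4 had an unadjusted p under 0.05) and their median difference was -0.10, with 21 of the 22 genes at or above the median gene of the table. No marker passed either among those of dendritic cells, mast cells, T and NK cells, B and plasma cells and erythroid cells, where 1, 2, 0, 2 and 0 genes had an unadjusted p under 0.05. Cd68 was the only macrophage marker and Pecam1 the only stromal or endothelial marker that rose, and their calls ended without pair 1, 2, 3 or 5 and without pair 2, 3 or 5.

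The reporter separated cells by the RNA of its own gene. Clec4a4 stood at 9.86, 9.50, 9.43, 8.29 and 8.83 in mCherry+ arrays 1 to 5, against 7.93, 7.70, 7.81, 6.42 and 7.77 in mCherry- arrays 1 to 5. The groups did not overlap, and pair 4 was lowest on both sides. The difference was 1.66 (SE 0.15, limma adjusted p = 0.00184). mCherry- cells thus kept a level above the median gene of the table, and as Clec4a4 has close paralogs that may share probes, this level is uncertain. Clec4a4 defined the sort, so its difference checks the labels and is no separate result.

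Ahr was already bright in mCherry- cells and higher again in mCherry+ cells. It stood at 11.41, 11.30, 11.24, 10.32 and 11.22 in the mCherry+ arrays, against 10.69, 10.41, 10.28, 9.03 and 10.07 in the mCherry- arrays. The groups overlapped only through mCherry+ array 4, and the mCherry+ array was higher in each pair, by 0.72 to 1.29. Ahr rose by 1.00 (SE 0.09, limma adjusted p = 0.00214). Its target Cyp1b1, a cytochrome P450 that oxidises hormones and xenobiotics, stood at 9.11, 9.40, 9.40, 8.12 and 9.51 in the mCherry+ arrays, against 5.98, 6.04, 6.39, 6.36 and 6.72 in the mCherry- arrays. Without any overlap, it rose 7.0-fold (difference 2.81, SE 0.22, limma adjusted p = 0.000775). Of 12 measured genes of the AHR pathway, Ahr and Cyp1b1 rose and Nqo1, a quinone reductase that NRF2 also drives, fell by 0.96. The AHR repressor Ahrr was higher in 5 of 5 pairs without passing the test (difference 0.92, adjusted p = 0.106). Tiparp and Cyp1a1, other classical AHR targets, had differences of 0.11 and 0.01, with Tiparp bright at 10.93 in mCherry+ and 10.82 in mCherry- cells and Cyp1a1 dim at 4.12 and 4.11. Nqo1 lost its call without pair 1, 2, 3 or 5. Without the replicate block, limma's adjusted p was 0.341 for Ahr and 0.0803 for Clec4a4.

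The stretch before the Cyp1b1 start is shown because Cyp1b1 is the AHR target that rose. It is read along the gene, chr17:79715113-79715157 on the minus strand of GRCm38.p6, from the promoter windows of RefSeq, and the capitals mark the AHR core GCGTG, here on the opposite strand.
Cyp1b1: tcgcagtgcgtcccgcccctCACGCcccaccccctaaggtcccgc
Searched on both strands from 250 bases before to 50 bases after a start, this core occurs in 44.5% of the 15615 tested genes that have such a window, so the match is a description only.

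Apart from Cyp1b1, the genes that rose most encode a dipeptidase, inhibitory and Fc-receptor-like surface molecules, enzymes and transporters. Dpep2, a membrane dipeptidase that converts leukotriene D4 into E4, stood at 9.99, 10.25, 10.30, 9.12 and 10.29 in the mCherry+ arrays, against 8.10, 7.48, 7.26, 6.02 and 6.92 in the mCherry- arrays. Its groups lay over 1 log2 unit apart, and it rose 7.12-fold (difference 2.83, SE 0.20, limma adjusted p = 0.000551). Cd22, a sialic acid-binding inhibitory receptor best known from B cells, stood at 8.20, 8.70, 9.23, 8.47 and 9.09 in the mCherry+ arrays, against 5.91, 5.81, 6.89, 6.16 and 6.01 in the mCherry- arrays. All mCherry+ values were higher than all mCherry- values, and Cd22 rose by 2.58 (SE 0.16, limma adjusted p = 0.00042). Of 12 B cell and plasma cell markers, 9 had a higher mean in mCherry+ cells, with differences of up to 1.06 and a median of 0.09, and none passed limma's test (2 had an unadjusted p under 0.05). Their mean level was 5.53, 5.08, 4.87, 5.95 and 4.87 in mCherry+ arrays 1 to 5, and 5.10, 4.92, 5.05, 5.44 and 4.92 in mCherry- arrays 1 to 5, and their part in the difference of Cd22 was not tested. Fcrls, of the Fc receptor-like family, rose by 2.36, and Ly86, the secreted partner of the receptor Cd180, by 2.09. Dio2, the deiodinase that activates thyroid hormone, rose by 2.01, St8sia4, which builds polysialic acid, by 1.75, and the organic anion transporters Slco4a1 and Slco4c1 by 1.71 and 1.66. Rcan1, a calcineurin inhibitor, rose by 1.60 and F2rl3, the thrombin receptor PAR4, by 1.59. Ly86 lost its call without pair 1 or 3, and Rcan1 without pair 2, 3 or 5.

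**Figure D2:**
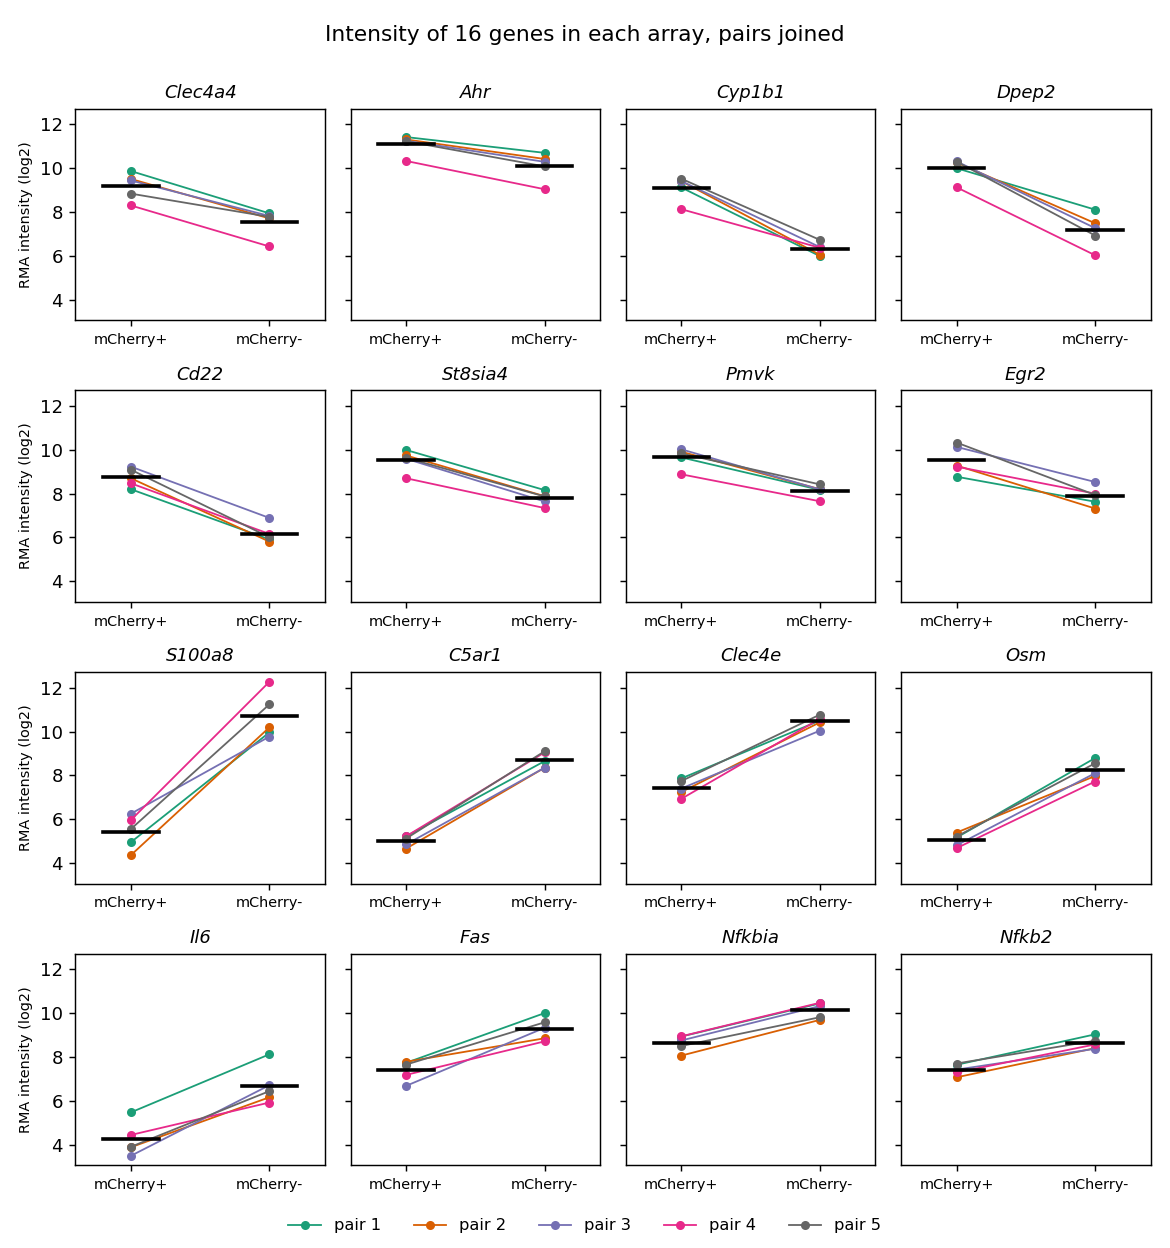
Log2 RMA intensity of 16 genes in each of the 10 arrays, with mCherry+ on the left, mCherry- on the right, the arrays of a pair joined and the group means as black bars. In all 16 genes the 5 pairs slope the same way, S100a8 has the widest gap, and pair 4 is lowest for Clec4a4, Ahr and Dpep2 on both sides.

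Among whole groups of genes, cholesterol synthesis had the most members that rose. Cells make cholesterol from acetyl-CoA through mevalonate, isoprenoids, squalene and lanosterol, and the transcription factor SREBP2, encoded by Srebf2, drives these enzymes when sterol is low. Of 27 measured genes of cholesterol synthesis and uptake, 16 rose (59.3%, against 1.06% of all genes) and none fell. Their median difference was 0.89, against -0.01 over all genes. In 18 of the 27 the mCherry+ array was higher in 5 of 5 pairs, against 5.94% of all genes. All 27 had a mean level at or above the median gene of the table.

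The genes that rose span the pathway in order. Hmgcs1, the synthase that makes HMG-CoA, stood at 10.46, 10.49, 10.24, 10.42 and 10.98 in the mCherry+ arrays, against 8.96, 9.40, 9.68, 9.59 and 9.62 in the mCherry- arrays. Its groups did not overlap, and it rose by 1.07 (SE 0.14, limma adjusted p = 0.00791). Pmvk, the phosphomevalonate kinase, stood at 9.65, 9.91, 10.02, 8.88 and 9.83 in the mCherry+ arrays, against 8.17, 8.20, 8.19, 7.65 and 8.42 in the mCherry- arrays. It had the largest difference of the list and no overlap (1.54, SE 0.12, limma adjusted p = 0.000751). Of the isoprenoid enzymes, Idi1 rose by 1.34 and Fdps by 1.07, and of the squalene enzymes, Fdft1 rose by 1.22 and Sqle by 1.05. Among the enzymes after lanosterol, Cyp51 rose by 1.19, Msmo1 by 1.44, Nsdhl by 0.89, Hsd17b7 by 1.46 and Sc5d by 1.05. The sterol sensor Insig1 rose by 1.13, the sterol carrier Stard4 by 0.99 and Srebf2 itself by 0.78.

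Of the list, 11 genes did not pass. Differences of 0.61 in Mvd, 0.59 in Acat2, 0.51 in Lss, 0.40 in Dhcr7 and 0.29 in Mvk were positive, while 5 genes lay between -0.09 and 0.06. Pair by pair, the median difference of the 27 genes was 1.08, 0.91, 0.63, 0.42 and 1.09 in pairs 1 to 5. In pair 4, which had the lowest eosinophil markers, 1 of the 27 genes was 2-fold higher in the mCherry+ array, against 9 to 15 in the other pairs. With pair 1, 2, 3, 4 or 5 left out, 12, 11, 11, 15 or 9 of the genes rose, and 6 rose without the replicate block.

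**Figure D3:**
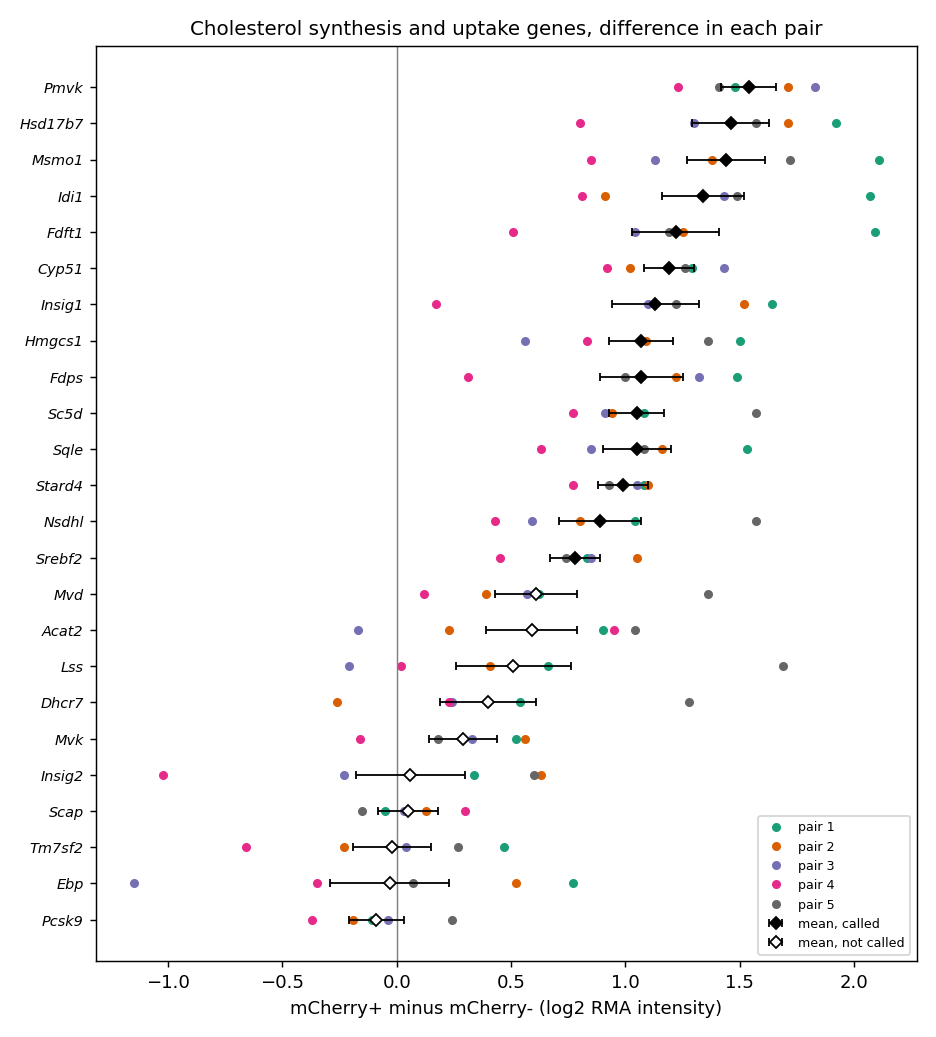
Difference between mCherry+ and mCherry- eosinophils, in log2 RMA intensity, for 24 of the 27 genes of cholesterol synthesis and uptake, with a dot for each pair and a diamond with its SE for the fitted mean. Filled diamonds, 14 in all, mark genes that passed the test, and pair 4 lies towards 0 in most of them.

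Other lipid genes moved less. Of 26 genes of fatty acid synthesis and lipid storage, the fatty acid synthase Fasn rose by 0.85 and the phosphatidate phosphatase Lpin1 by 1.51, with a median difference of 0.16 for the list. None of 14 genes of cholesterol efflux passed limma's test (3 had an unadjusted p under 0.05), with Apoe at 0.50 and Abca1 at -0.43. None of 17 genes of fatty acid oxidation passed either (4 at an unadjusted p under 0.05), although 15 of them were lower in mCherry+ cells and their median difference was -0.22. Fasn lost its call without pair 1, 2, 3 or 5, and Lpin1 without pair 5.

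Promoter stretches of cholesterol genes are shown because their members rose together and SREBP factors are known to act with NF-Y, which binds the CCAAT box. A window was matched for 19 of the 27 genes, and 17 of these 19 (89.5%) held CCAAT on either strand, against 41.7% of the tested genes with a window. The sterol response element, searched as TCACNCCAC on both strands, was in 1 of the 19, Hmgcs1, and in 1.38% of the tested genes. The stretches are read along the gene from GRCm38.p6, and the capitals mark CCAAT, its reverse complement ATTGG and, in Hmgcs1, the sterol response element. They lie at chr13:119690101-119690330 (plus strand) for Hmgcs1, chr13:8885541-8885605 (plus) for Idi1, chr3:89454385-89454429 (plus) for Pmvk and chr8:64733609-64733758 (minus) for Msmo1.
Hmgcs1: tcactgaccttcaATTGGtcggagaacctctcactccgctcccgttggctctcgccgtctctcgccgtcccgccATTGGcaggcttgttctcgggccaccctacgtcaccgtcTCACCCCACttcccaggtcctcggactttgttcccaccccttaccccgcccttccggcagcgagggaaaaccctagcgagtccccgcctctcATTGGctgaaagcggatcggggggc
Idi1: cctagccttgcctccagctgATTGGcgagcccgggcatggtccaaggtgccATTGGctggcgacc
Pmvk: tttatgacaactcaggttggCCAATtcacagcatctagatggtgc
Msmo1: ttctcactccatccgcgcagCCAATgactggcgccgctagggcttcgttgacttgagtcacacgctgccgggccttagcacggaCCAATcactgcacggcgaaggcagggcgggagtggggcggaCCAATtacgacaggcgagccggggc
Hmgcs1 and Msmo1 thus hold 3 CCAAT boxes each in these stretches, Idi1 holds 2 and Pmvk holds 1. These matches describe the letters of the window and do not show binding. The list was drawn up from a pathway known to be driven by SREBP2, so a high share of CCAAT can be part of its choice. The AHR core GCGTG was also in 13 of the 19 genes (68.4%), against 44.5% of the tested genes with a window.

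The genes that fell most encode the calprotectin subunits, a complement receptor and a cytokine. S100a8, a calcium-binding subunit that pairs with S100a9, stood at 4.95, 4.36, 6.25, 5.96 and 5.55 in the mCherry+ arrays, against 9.96, 10.19, 9.77, 12.27 and 11.24 in the mCherry- arrays. The groups lay over 3 log2 units apart, and mCherry- arrays 4 and 5, with the highest neutrophil markers, were highest. It fell 38.7-fold (difference -5.27, SE 0.35, limma adjusted p = 0.000488), and S100a9 fell by 5.03. With pairs 4 and 5 left out, the differences of S100a8 and S100a9 were -4.79 and -4.68 (limma adjusted p = 0.00999 and 0.0041), and those of C5ar1, Clec4e and Osm were -3.54, -2.82 and -3.16, all of which passed. No other of the 16 measured S100 and annexin genes passed.

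C5ar1, the receptor of the complement fragment C5a, differed by nearly the same amount in every pair, between -3.99 and -3.43. It stood at 5.22, 4.66, 4.85, 5.22 and 5.12 in the mCherry+ arrays, against 8.65, 8.35, 8.35, 9.05 and 9.10 in the mCherry- arrays. Every mCherry+ value lay below the median gene of the table and every mCherry- value far above it, and C5ar1 fell by 3.69 (SE 0.14, limma adjusted p = 3.38e-05). Its relative C3ar1, the C3a receptor, fell by 1.60 with overlapping groups. Of 24 chemoattractant and lipid mediator receptors, C5ar1, C3ar1 and Gpr35 fell and P2ry14, the UDP-glucose receptor, rose by 0.51. None of 18 chemokine receptors passed limma's test (2 had an unadjusted p under 0.05). C3ar1 lost its call without pair 1, 2, 3 or 5, Gpr35 without pair 1, and P2ry14 whichever pair was left out.

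Of 22 measured C-type lectins, 2 rose and 6 fell, against 1.06% and 0.755% of all genes. Of the 2 that rose, 1 was Clec4a4, whose reporter defined the sort. Apart from it, 1 of 21 rose, Clec4b2, a relative from the same gene cluster, at 1.52. Clec4e, the Mincle receptor for mycobacterial glycolipids, stood at 7.86, 7.24, 7.40, 6.93 and 7.74 in the mCherry+ arrays, against 10.5, 10.42, 10.04, 10.58 and 10.77 in the mCherry- arrays. Its groups were over 2 log2 units apart and it fell by 3.03 (SE 0.16, limma adjusted p = 0.000159). Lower too were the beta-glucan receptor Clec7a (-2.38), the mannan receptor Clec4n (-2.37), Clec4a2 (-2.61), the inhibitory receptor Clec12a (-2.12) and the scavenger receptor Olr1 (-1.02), all of which passed. Clec4d, which pairs with Clec4e, had a difference of -2.32 and did not pass (adjusted p = 0.0746), with mCherry- arrays 4 and 5 at 10.33 and 9.72 and the other mCherry- arrays at 7.38 to 8.18. Clec4n too was highest in mCherry- arrays 4 and 5, at 8.21 and 8.33, against 5.81 to 6.97 in the other mCherry- arrays. With pairs 4 and 5 left out, 2 lectins rose and 8 fell. Clec4a2, Clec4a4 and Clec4b2 are paralogs, and whether their probes read each other's RNA was not tested.

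Of 31 interleukins and other cytokines, 6 fell (19.4%) and none rose, and of 14 TNF superfamily ligands 3 fell (21.4%), against 0.755% of all genes. Osm, oncostatin M, stood at 5.16, 5.39, 4.81, 4.68 and 5.21 in the mCherry+ arrays, against 8.79, 7.97, 8.10, 7.72 and 8.55 in the mCherry- arrays. All mCherry+ values were close to or under the median gene of the table, and Osm fell by 3.18 (SE 0.17, limma adjusted p = 0.000159). Il6 stood at 5.48, 3.89, 3.50, 4.45 and 3.91 in the mCherry+ arrays, against 8.13, 6.17, 6.72, 5.93 and 6.45 in the mCherry- arrays. Pair 1 was highest on both sides, the groups did not overlap, and Il6 fell by 2.44 (SE 0.22, limma adjusted p = 0.00184).

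Il23a, the p19 subunit of IL-23, fell by 1.77, Il15 by 1.63, Il16 by 0.70 and the growth factor Vegfa by 0.47. Il15 stood at 7.75 and 7.44 in mCherry- arrays 4 and 5, against 5.37 to 6.11 in the other mCherry- arrays. Of the TNF ligands, Tnf fell by 2.40, Tnfsf14 by 1.09 and Ltb by 0.84. The brightest cytokines did not follow: Il1b averaged 11.81 in mCherry+ and 11.67 in mCherry- cells, Il1a 11.89 and 12.04, and Il1rn 11.08 and 11.01, all without passing. Of 22 chemokines, Ccl9 fell by 2.31, Ccl6 by 0.62 and Cxcl3 by 0.61 while Ccl4 rose by 0.70, and Cxcl2 averaged 12.62 in mCherry+ and 12.65 in mCherry- cells. Il16 and Ltb lost their calls whichever pair was left out, Vegfa without pair 1, 2, 3 or 5 and Tnf without 2, 3, 4 or 5. Ccl9 lost its call without pair 1, 2 or 5, Ccl6 without 2, 3 or 5 and Ccl4 without 1, 2 or 3.

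The NF-kB system had the most members that fell. NF-kB dimers are held back by IkB proteins and, once free, switch on inflammatory genes together with their own inhibitors. Of 25 measured subunits and feedback inhibitors, 11 fell (44.0%, against 0.755% of all genes) and none rose. The median difference was -0.51, and 16 were lower in 5 of 5 pairs, against 6.01% of all genes. Nfkbia, which encodes the inhibitor IkB-alpha, stood at 8.94, 8.07, 8.76, 8.95 and 8.51 in the mCherry+ arrays, against 10.45, 9.70, 10.33, 10.48 and 9.82 in the mCherry- arrays. Its 5 pair differences lay between -1.64 and -1.31, and it fell by 1.51 without overlap (SE 0.09, limma adjusted p = 0.000329). Of the subunits, Nfkb2 stood at 7.65, 7.08, 7.43, 7.30 and 7.71 in the mCherry+ arrays, against 9.04, 8.41, 8.38, 8.58 and 8.75 in the mCherry- arrays. Again no values overlapped, and Nfkb2 fell by 1.20 (SE 0.12, limma adjusted p = 0.00311).

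Nfkb1 fell by 0.97 and Relb by 0.77, while Rela and Rel had differences of -0.49 and -0.25 without passing, Rela at an adjusted p of 0.0543. The inhibitors Nfkbie and Nfkbib fell by 1.27 and 0.63 and the nuclear cofactor Bcl3 by 1.36. Of the wider feedback genes, the ubiquitin-editing enzyme Tnfaip3 fell by 0.61, Traf1 by 0.88, Birc3 by 0.49 and the mitochondrial superoxide dismutase Sod2 by 1.00. Pair by pair, the median of the 25 genes was -0.65, -0.40, -0.40, -0.64 and -0.54. With pair 1, 2, 3, 4 or 5 left out, 5, 4, 4, 8 or 5 genes of the list fell, with pairs 4 and 5 left out 4 fell, and without the replicate block 2 fell.

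**Figure D4:**
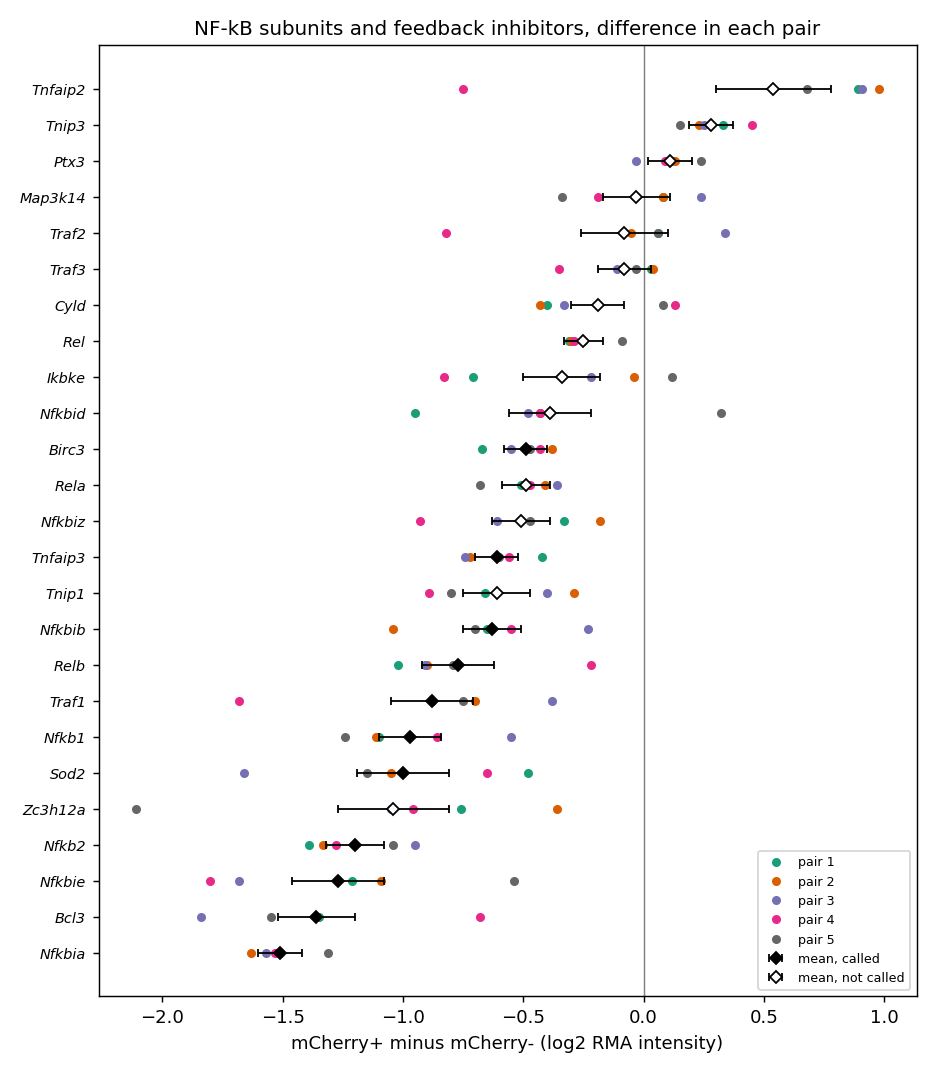
Difference between mCherry+ and mCherry- eosinophils, in log2 RMA intensity, for 25 NF-kB subunits and feedback inhibitors, with a dot for each pair and a diamond with its SE for the fitted mean. The 11 filled diamonds mark genes that passed the test, all of them lower in mCherry+ cells, and the dots of Nfkbia lie closest together among the 4 genes with the largest differences.

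Stretches before the starts of Nfkbia and Nfkb2 are shown because both genes fell and both are known targets of NF-kB. The consensus motif of NF-kB, searched on both strands, was in 14 of the 22 listed genes with a window (63.6%), against 10.9% of the tested genes. Among all genes that fell the share was 23.3% of 120 with a window, and among those that rose 11.9% of 159. The stretches are read along the gene from the RefSeq windows on GRCm38.p6, at chr12:55492648-55492696 (minus strand) for Nfkbia and chr19:46304678-46304736 (plus strand) for Nfkb2, and the capitals mark the motif, with overlapping matches joined. In Nfkbia the motif is on the opposite strand, so the capitals are its reverse complement, and in Nfkb2 matches lie on both strands. Other windows of Nfkb2 also held matches and are not shown.
Nfkbia: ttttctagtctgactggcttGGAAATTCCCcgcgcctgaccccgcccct
Nfkb2: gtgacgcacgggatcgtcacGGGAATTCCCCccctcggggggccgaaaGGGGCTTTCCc
The list was drawn up from genes known to respond to NF-kB, so a high share is part of its choice, and the matches say nothing about binding in these cells.

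Icam1, the ligand of LFA-1, fell by 1.33, Ptgs2, the inducible prostaglandin synthase, by 1.30, and Ier3, an immediate early gene, by 1.37. Of 25 Toll-like and NOD-like receptor genes, 1 rose and 3 fell. Ly86 was the one that rose, while the inflammasome sensor Nlrp3 fell by 2.57, the signalling brake Irak3 by 2.01 and the inflammatory caspase Casp4 by 1.03. Nlrp3 stood at 8.88 and 8.66 in mCherry- arrays 4 and 5, against 5.58 to 6.16 in the other mCherry- arrays. Its pair differences lay between -4.2 and -1.08, and it lost its call without pair 1, 3, 4 or 5. Acod1, which makes the metabolite itaconate in activated myeloid cells, stood at 9.45, 7.86, 9.12, 7.58 and 9.15 in the mCherry+ arrays, against 11.59, 11.01, 11.25, 11.68 and 11.45 in the mCherry- arrays. The mCherry- arrays were close together and the mCherry+ arrays were spread, and Acod1 fell by 2.77 (SE 0.27, limma adjusted p = 0.00253). No such change was seen in interferon response genes, of which none of 25 passed limma's test (3 had an unadjusted p under 0.05), with a median of -0.08.

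**Figure D5:**
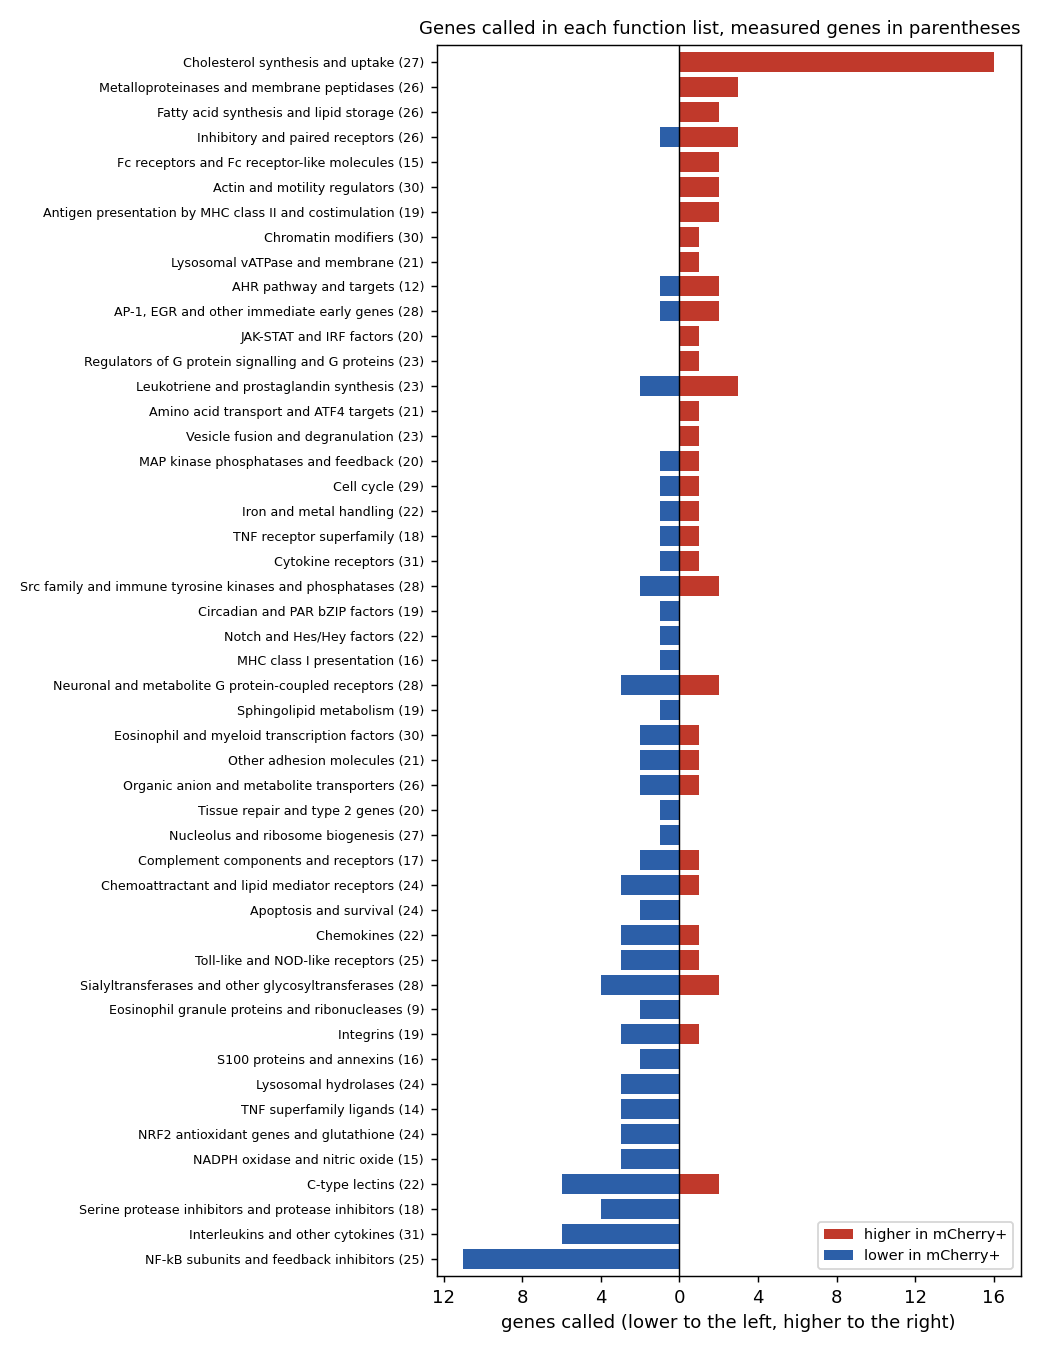
Number of genes called lower (left) and higher (right) in mCherry+ eosinophils for each of the 49 function lists with a called member, with the number of measured genes in parentheses. Cholesterol synthesis reaches 16 genes to the right and the NF-kB list 11 to the left, and most other lists hold 1 to 4.

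Several families held members that moved in opposite directions. Of 19 integrins, Itgax, the CD11c chain, stood at 11.13, 11.19, 11.12, 10.15 and 11.02 in the mCherry+ arrays, against 10.49, 10.01, 10.33, 9.31 and 9.89 in the mCherry- arrays. Only mCherry+ array 4 fell within the mCherry- range, and Itgax rose by 0.91 (SE 0.10, limma adjusted p = 0.00348; 0.257 without the block). Itgb7, which forms the gut-homing integrin with Itga4, fell by 1.08, Itgal, the LFA-1 chain, by 1.01 and the fibronectin receptor chain Itga5 by 0.78. Of other adhesion molecules, Icam1 fell while Pecam1 rose by 0.78. Itgb7 lost its call whichever pair was left out, Itgal without pair 2 or 3, Itga5 without 2 and Pecam1 without 2, 3 or 5.

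Among death receptors, Fas stood at 7.74, 7.79, 6.69, 7.19 and 7.66 in the mCherry+ arrays, against 10.01, 8.86, 9.34, 8.72 and 9.59 in the mCherry- arrays. The groups did not overlap, and Fas fell by 1.89 (SE 0.21, limma adjusted p = 0.00437). The TNF receptor Tnfrsf1a rose by 1.11, with a difference of 0.07 in pair 4 and a call that ended without pair 1, 2, 3 or 5. Of the costimulatory ligands, Cd80 rose by 0.63 and Cd86 by 1.29, and no other of 19 genes of class II presentation passed. Cd86 lost its call without pair 2, 3, 4 or 5. Receptors for cytokines also split, with Il13ra1 at 0.78 and Il18rap at -0.75 both called in the full set, and both lost without pair 1, 3 or 5.

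In the leukotriene and prostaglandin list, Dpep2, Lta4h and Pla2g7 rose while Ptgs2 and Pla2g4a fell. Lta4h, which makes leukotriene B4, rose by 0.67, the platelet-activating factor hydrolase Pla2g7 by 0.28, the smallest difference among the genes that rose, and the cytosolic phospholipase Pla2g4a fell by 0.68. Sugar-building enzymes did the same: St8sia4 and Gcnt2 rose by 1.75 and 1.18 and St3gal1, Gcnt1, St3gal5 and B4galt5 fell by 1.10, 0.72, 0.69 and 0.54. In iron handling, the exporter Slc40a1 (ferroportin) rose by 0.99 and the phagosomal transporter Slc11a1 fell by 1.37. Gcnt1, St3gal5, B4galt5 and Pla2g4a lost their calls whichever pair was left out, Pla2g7 without pair 1, 2, 3 or 5, St3gal1 without pair 1, Lta4h without pair 3 and Slc40a1 without pair 2, 3 or 5.

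In the lists of NADPH oxidase, protease inhibitor, eosinophil granule and lysosomal hydrolase genes, no gene rose. Of 15 genes of the NADPH oxidase and nitric oxide group, the oxidase subunits Ncf1 and Ncf4 fell by 0.75 and 0.80 and the citrullinating enzyme Padi4 fell by 2.20, while the catalytic subunit Cybb did not pass (difference -0.21). Of 18 protease inhibitors, Serpinb10 fell by 2.36, Slpi by 2.14 and Serpinb2 by 0.93. Of 9 granule genes, Prg2, the major basic protein, fell by 1.02 and the ribonuclease Ear1 by 1.23, while Prg3 and Epx had mean levels under the median gene of the table. Lysosomal proteases Ctsd and Ctsz fell by 0.98 and 0.62. Without 1 pair, calls ended for Ncf1 (pair 1 or 3), Ncf4 (1 or 5), Prg2 (1, 2, 3 or 4), Ctsd (1, 2, 3 or 5) and Ctsz (any). Ear1 belongs to a family of near-identical ribonucleases, so its level may include its relatives.

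Of 30 eosinophil and myeloid transcription factors, 1 rose and 2 fell, and of 28 AP-1, EGR and other immediate early genes, 2 rose and 1, Ier3, fell. Over all genes, 1.06% rose and 0.755% fell. Egr2, of the immediate early genes, stood at 8.77, 9.28, 10.13, 9.23 and 10.33 in the mCherry+ arrays, against 7.63, 7.32, 8.53, 8.0 and 7.94 in the mCherry- arrays. It rose by 1.66 without overlap (SE 0.18, limma adjusted p = 0.00382; 0.0564 without the block). Nr4a2 rose by 1.24 and the glucocorticoid receptor Nr3c1 by 0.97, while Zeb2, a repressor with a role in myeloid maturation, fell by 1.65 and Bhlhe40 fell by 0.45. The histone deacetylase Hdac5, the only 1 of 30 chromatin modifiers that passed, rose by 1.37. Prdm1, the Blimp-1 repressor, and Satb1 belong to none of the lists and were chosen after their values were seen, and they rose by 1.25 and 1.18. Notch1, the only 1 of 22 Notch and Hes/Hey genes that passed, fell by 0.95. Myc, the only 1 of 27 nucleolar and ribosome biogenesis genes that passed, fell by 1.83, and mCherry+ array 4 was at 8.13 while the other mCherry+ arrays lay at 5.96 to 6.56. With 1 pair left out, calls ended for Nr4a2, Nr3c1 and Myc without pair 1, 2, 3 or 5, for Bhlhe40 whichever pair was left out and for Notch1 without pair 3. Of 29 cell cycle genes, 1 rose and 1 fell, and the one that rose was the kinase inhibitor Cdkn1b, by 0.67.

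Signalling receptors for metabolites and nucleotides were split as well. Of 28 such receptors, F2rl3 and Gpr171 rose while the proton sensor Gpr65 fell by 1.81, the ATP channel P2rx4 by 1.48 and the adenosine receptor Adora2b by 0.60. Rgs1, which shortens G protein signals, rose by 0.88 and was bright, at 11.96 in mCherry+ and 11.08 in mCherry- cells. Outside all lists, Rassf4 fell by 2.73, the hexose transporter Slc2a6 by 2.14, the actin regulator Marcksl1 by 2.08 and the surface ADP-ribosyltransferase Art2a by 2.08, all chosen by size or after their values were seen. Gpr171 lost its call without pair 2, 3 or 5, P2rx4 and Adora2b without pair 1, 2, 3 or 5 and Marcksl1 without pair 1, 2, 4 or 5.

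Housekeeping groups showed small shifts or none. No member passed limma's test in 18 of the 67 function lists, which are not all housekeeping groups. In these 18, the counts at an unadjusted p under 0.05, which held for 11.9% of all genes, ran from 0 to 10 genes per list. Shares above that of all genes included 10 of 25 in ion channels (40.0%), 9 of 24 in TGF-beta signalling (37.5%) and 6 of 24 in autophagy (25.0%). In housekeeping lists the counts were 4 of 21 in glycolysis, 2 of 19 in the TCA cycle, 0 of 23 in the respiratory chain, 0 of 24 in the mitochondrial ribosome, 3 of 24 in the proteasome and 2 of 24 in the unfolded protein response. Cytosolic ribosomal proteins formed an even group, with all 28 genes lower in mCherry+ cells by sign, none past limma's test, 9 at an unadjusted p under 0.05 and a median difference of -0.15. In pair 4 their median was 0.03, against -0.14 to -0.21 in the other pairs. Splicing factors and RNA helicases had a median of 0.11, with 18 of 23 higher by sign, none called and 7 at an unadjusted p under 0.05.

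The single arrays of WT mice gave values from another sort, with no replicate and no test. Of 212 genes that rose in the reporter comparison and were present in both tables, 191 (90.1%) were higher in the WT Clec4a4+ array than in the WT Clec4a4- array, against 47.7% of all 19706 shared genes. Of 149 genes that fell, 139 (93.3%) were lower in the WT Clec4a4+ array, against 46.6% of all. These counts give the direction only. The median difference between the WT arrays was 0.43 for the 212 genes and -0.84 for the 149. In the reporter sort, all genes that rose or fell had medians of 0.88 and -1.01. Among the AHR genes, Cyp1b1 stood at 4.92 in the WT Clec4a4+ array and 4.70 in the WT Clec4a4- array, and Ahr at 11.11 in WT Clec4a4+ and 11.08 in WT Clec4a4-. Cyp1b1 and Ahr thus differed by 0.22 and 0.03, against 2.81 and 1.00 in the reporter sort. Both Cyp1b1 values were close to the median gene of their arrays, 4.8 in WT Clec4a4+ and 4.78 in WT Clec4a4-. Ahrr stood at 7.14 in WT Clec4a4+ and 4.98 in WT Clec4a4-, and Nqo1 at 6.38 in WT Clec4a4+ and 7.19 in WT Clec4a4-. The tables were normalized separately and come from different array models, so levels are compared only within each.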

How the data were processed

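Total RNA of 10 reporter samples was amplified to biotinylated cDNA and hybridised to 1 microarray each, per the labels' protocols. The deposited values are log2 intensities per probe set that the authors made by RMA, per the submitters' processing notes. The sources used here give no version of RMA. RMA corrects the background, makes the arrays' distributions alike by quantile normalization and summarises probes, so a shift shared by all genes cannot be seen. The number of arrays limits the precision, since array files give no read depth.

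Of 35556 probe sets, 22549 had a gene symbol in the deposited annotation, and the other 13007 were left out. Symbols were updated through RefSeq (1152 changed), and the brightest probe set by mean over the 10 arrays was kept for each of 20527 genes. Each array's median over all probe sets was 5.18 to 5.27. limma 3.58.1 in R 4.3.3 fitted group and replicate number as a block, with a trended and robust empirical Bayes step, two-sided tests and Benjamini-Hochberg adjustment over all 20527 genes. The fit was tested on simulated data. The labels do not say what the number stands for. Arrays of the same number deviated together from their group means, with correlations of 0.653, 0.163, 0.158, 0.527 and 0.197 in pairs 1 to 5. The numbers were therefore taken to pair the samples. By these deviations, 9 of 10 arrays were most like the other array of their number. Taking off the group mean lowers correlations within a group, however. For the levels themselves, correlations were 0.968 to 0.972 within a number and 0.92 to 0.977 within a group. There, mCherry+ array 2 was closer to mCherry+ array 3 (0.9768) than to mCherry- array 2 (0.9685).

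The reporter gene, the marker genes, the 15 genes with the largest differences in each direction and up to 4 called genes of each list could be named; genes outside this rule were chosen after their values were seen. Of 1623 genes in 78 lists, 1563 were measured. The genes and lists were chosen with earlier results of these data known. Promoter windows are those of RefSeq on GRCm38.p6. Alternatives covered the block, each left-out pair, the probe set rule, dim genes, normalization, the variance model and array weights. The arrays of WT and Ahr KO mice were not tested, having no replicates. Some genes are not reported here by name, though they count in the totals.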

Additional observations from a re-analysis of the deposited data

Results flagged for a closer look

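Among 354 groups of 5 values of the named genes and marker lists, 36 held an array farther from the others than Dixon's 95% limit, which chance alone passes in about 1 of 20 groups. Of these, 26 were arrays of pair 4, which had the lowest eosinophil markers.

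The mCherry+ array 4 was lowest for Ahr (10.32), Cyp1b1 (8.12), Dpep2 (9.12), Itgax (10.15), Cd80 (10.14), Hdac5 (7.97), Slco4c1 (8.16), Pecam1 (8.17), Notch1 (7.57), Ncf1 (9.13), Itgal (6.66), Olr1 (8.33), Serpinb2 (10.17), Cxcl3 (10.28), Csf3r (6.25), Retnlg (11.58), St3gal5 (4.59), Padi4 (3.89) and Ltf (4.32). It was highest for Myc, at 8.13 against 5.96 to 6.56 in the other mCherry+ arrays, and for Casp4 (7.29). The mCherry- array 4 was lowest for Clec4a4 (6.42), Ctsd (9.19), Cxcl3 (11.12) and Pla2g7 (11.41), and highest for Cd68 (8.21).

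In pair 1, Xist was highest in both arrays, at 9.90 in mCherry+ and 10.36 in mCherry- cells, Adora2b and Adgre5 were highest in the mCherry+ array (5.52 and 9.87) and Ctsz lowest (7.83). The mCherry+ array 5 was highest for Cyp51 (10.15) and Hsd17b7 (9.21). The mCherry+ array 2 was highest for Epx (4.89), the mCherry- array 2 was lowest for Nr4a2 (6.26), and the mCherry+ array 3 was lowest for Il18rap (3.75).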

How the results depend on the processing

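The number of genes that passed depended on the samples and on the pairing. All 373 genes kept their direction under every alternative in which they were tested. For left-out pairs this was fixed in advance, because each gene had the same direction in 5 of 5 pairs. Changing the block does not change the mean difference. Of the 373 genes, 77 kept their call without the replicate block, 196 with the number as a random block and 134 with pairs 4 and 5 left out. With the replicate block, 218 genes were higher and 155 lower in mCherry+ cells; without the replicate block these counts were 32 and 45, and with the number as a random block 111 and 100. With 1 pair left out, 82 to 189 genes were higher and 72 to 133 lower, and with pairs 4 and 5 left out, an alternative chosen after seeing the data because their mCherry- arrays had the highest neutrophil markers, 84 and 86. The deposited series matrix, the mean of a gene's probe sets, all probe sets, a second quantile normalization, no trend and array weights kept both counts within 1.5 times, as did leaving out dim genes. Of 139 named genes that passed, 72 kept their call with each pair left out and 47 without the block. The sign reversed only in named genes that did not pass. With 1 pair left out, Cyp1a1 ranged from -0.07 to 0.06, Camp from -0.13 to 0.07, Ly6g from -0.14 to 0.03 and Xist from -0.12 to 0.06. With pairs 4 and 5 left out, Cyp1a1 was -0.11, Camp 0.05, Cxcl2 0.01, Ly6g 0.08 and Mmp8 0.04, and with array weights Cyp1a1 was -0.00. The cause was not tested; fewer samples enter the fits that leave pairs out.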

Other observations

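Of the 373 genes that passed, 144 belong to a function list, and the others include genes of known function that were picked after their values were seen. Among these, Hgf, the hepatocyte growth factor, rose by 0.99, the lysophosphatidylinositol receptor Gpr55 by 1.02, the tartrate-resistant acid phosphatase Acp5 by 1.02, the junctional adhesion molecule-like protein Jaml by 1.10 and the tetraspanin Tspan13 by 1.30. Tspan13 averaged 11.24 in mCherry+ and 9.94 in mCherry- cells, and Hgf 7.97 and 6.99. With 1 pair left out, Tspan13 kept its call each time, while Hgf lost it without pair 1, 3, 4 or 5, Gpr55 without 1 or 3, Acp5 without 1, 3 or 5 and Jaml without 1, 2, 3 or 5.

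Genes that fell outside the lists include the semaphorin Sema4d (-1.59), the Notch-modifying glycosyltransferase Lfng (-1.56), the small GTPase Rab32 (-1.46), the growth factor receptor Fgfr1 (-1.35), the adhesion receptor Adgre5 (-1.18), the peptidoglycan-binding protein Pglyrp1 (-1.11) and Gch1 (-1.0), which makes the cofactor of nitric oxide synthases. Lfng lost its call without pair 1, 2, 3 or 4 and Gch1 without pair 1, 2, 4 or 5, while the other 5 kept theirs with each pair left out.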
